A study of Mus musculus with 15 samples.

Results

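Serotonin receptors were described here through 10 genes, chosen by symbol from the 26628 rows of the expression table: Htr1a, Htr1b, Htr1d, Htr2a, Htr2c, Htr3a, Htr4, Htr5a, Htr6 and Htr7. Their RNA was measured in whole dissected cerebellum (Ce) and whole striatum (St) from male Hsd:ICR mice. The mice belonged to a line bred for high voluntary wheel running (Hi, labelled Selected) or to an unselected control line (Co). The groups were CeCo (n = 4), CeHi (n = 4), StCo (n = 4) and StHi (n = 3), and the authors had removed a further StHi sample after a principal component analysis. All mice, controls included, were placed at about 6 weeks of age in individual cages with a running wheel, and tissue was taken after 7 days. Each group came from a single breeding line, so that selection and drift between lines cannot be told apart, and no mice without a wheel were analysed here. The labels do not state whether Ce and St samples with the same number came from the same mouse.

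Serotonin is released in the forebrain and cerebellum by neurons of the raphe nuclei, and its effect on a cell depends on which receptors the cell makes. Receptors of the HTR1 and HTR5 families couple to Gi/o proteins and lower cyclic AMP, those of the HTR2 family couple to Gq and release calcium through phospholipase C, and HTR4, HTR6 and HTR7 couple to Gs and raise cyclic AMP. HTR3A is a subunit of a cation channel that serotonin opens directly. In the St these receptors modulate medium spiny neurons and their cortical and nigral inputs, and HTR2C is also the serotonin receptor of the choroid plexus epithelium, the tissue that secretes cerebrospinal fluid.

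The values are fragments per gene divided by a library-size factor of each sample and not by gene length, and are called normalized counts below. A single fragment was worth 0.841 to 1.30 normalized counts, and samples held 32909383 to 47485535 fragments. Where no sample of a group had more than 3 fragments, the gene was taken to be at the detection floor, a limit set for counting error alone. All 10 members were among the 15213 genes tested, those with at least 1 CPM (counts per 1000000) in 3 samples. The regional labels fitted the marker genes: all 8 cerebellar granule cell markers and all 6 Purkinje cell markers tested were higher in the Ce, and all 11 medium spiny neuron markers tested were higher in the St. Drd1 was not analysed here. Of 5 serotonin neuron markers, the transporter gene Slc6a4 did not exceed 5.28 normalized counts in any sample, the raphe transcription factor gene Fev did not exceed 1.23, and Tph2, which makes the rate-limiting enzyme of serotonin synthesis in the brain, lay between 6.48 and 35.7. The transcription factor gene Gata3 did not exceed 4.27 except in CeHi replicate 3 (24.3), and En1, which other hindbrain neurons also express, was 139 to 355 in the Ce and 1.30 to 7.41 in the St. The sum of the 5 genes was 171 to 413 in the Ce and 23.3 to 44.4 in the St. CeHi replicate 3 and StHi replicate 0 stood apart from the other samples of their region in marker genes, as described with the receptors they touch, and choroid plexus markers varied widely between Ce samples.

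The promoters of 3 members are shown because their genes mark the ends of the results that follow. Among members above the detection floor in the Ce, Htr1a had the largest difference between regions and Htr5a the smallest. Htr2c was the most abundant member per length. They are RefSeq windows on GRCm38.p6 of 250 bases before and 50 after the start, given 5′ to 3′ on the strand of the gene. Htr1a lies on chromosome 13 (chr13:105443443-105443742, plus strand), Htr2c on chromosome X (chrX:146962263-146962562, plus strand) and Htr5a on chromosome 5 (chr5:27841697-27841996, plus strand). Capitals mark a GC box (GGGCGG) in Htr1a, a CCAAT box in Htr2c, read there on the other strand, and an E-box (CAGCTG) in Htr5a.
Htr1a: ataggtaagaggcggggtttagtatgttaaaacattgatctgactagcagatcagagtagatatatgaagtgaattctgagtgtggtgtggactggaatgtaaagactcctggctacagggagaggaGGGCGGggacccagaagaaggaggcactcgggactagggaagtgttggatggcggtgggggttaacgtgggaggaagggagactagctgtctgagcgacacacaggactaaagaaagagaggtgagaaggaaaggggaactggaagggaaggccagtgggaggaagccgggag
Htr2c: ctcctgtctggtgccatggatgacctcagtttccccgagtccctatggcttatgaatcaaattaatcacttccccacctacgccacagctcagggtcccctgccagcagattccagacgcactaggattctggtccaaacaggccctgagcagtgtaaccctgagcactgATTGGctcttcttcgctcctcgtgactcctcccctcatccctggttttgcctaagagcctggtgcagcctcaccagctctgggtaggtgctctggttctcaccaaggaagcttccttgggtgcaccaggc
Htr5a: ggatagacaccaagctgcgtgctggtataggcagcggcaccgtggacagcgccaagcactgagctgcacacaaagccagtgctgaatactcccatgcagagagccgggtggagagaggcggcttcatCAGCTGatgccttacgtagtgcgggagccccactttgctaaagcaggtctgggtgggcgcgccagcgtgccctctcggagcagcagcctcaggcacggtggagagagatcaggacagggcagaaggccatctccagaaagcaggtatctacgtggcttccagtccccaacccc
On either strand, the GC box letters were found in 35.7% of 32851 RefSeq promoters of this length, CCAAT in 37.4% and CAGCTG in 16.3%. A TATA box (TATAAA, 13.6% of promoters) and a cyclic AMP response element (TGACGTCA, 1.79%) were searched as well and were in none of the 3 windows. The motifs did not overlap. GC content was 52.3% in Htr1a, 56.3% in Htr2c and 61.3% in Htr5a, against a median of 52.7% over all promoters. These matches describe letters and not binding sites. For 8 member genes, 10 promoter windows were matched, with GC content from 52.0% to 81.0%, the latter for Htr7. Htr3a had no entry, and the promoter of Htr4 was not used here.

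The gene models (GENCODE M21, GRCm38) place Htr1a at chr13:105443639-105448122 as a gene without introns, Htr5a at chr5:27842149-27855088 and Htr2c at chrX:146962513-147197277, where microRNA genes and Snora35 lie in its introns. Htr1b (chr9:81628291-81633828) shares exonic sequence with the antisense gene D430036J16Rik on the opposite strand. Strand-specific counting is not stated in the sources used here, so reads of Htr1b and of its antisense partner cannot be told apart. Htr2a lies at chr14:74640840-74709494, Htr3a at chr9:48899213-48911099 and Htr7 at chr19:35958734-36057507. Htr1d (chr4:136423524-136444398) and Htr6 (chr4:139061108-139075570) lie on the same chromosome. All 10 members are protein coding genes, and their values are sums over exons and therefore do not separate isoforms.

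The first question was how the receptors were distributed between the regions. Every member was lower in each of the 8 Ce samples than in each of the 7 St samples, and all 10 were called lower in the Ce by limma at an FDR-adjusted P-value under 0.05. Among all genes tested, 80.2% were called between regions, 39.6% were called lower in the Ce, and 28.0% had every Ce sample below every St sample. Of the members, 6 reached 1 CPM in 3 samples of each region (Htr1b, Htr1d, Htr2a, Htr2c, Htr5a and Htr7), and all 6 were called lower in the Ce, where 38.1% of the 13895 genes of that kind were. The other 4 (Htr1a, Htr3a, Htr4 and Htr6) passed the filter through the St alone, so their calls add no support. Differences below are log2 values of the Ce minus the St with the standard error (SE) of the model, on the scale of log2 of the normalized count plus 1, which understates changes of genes with few fragments. In whole tissue, fewer cells with a receptor and less RNA per cell cannot be told apart.

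**Figure D1:**
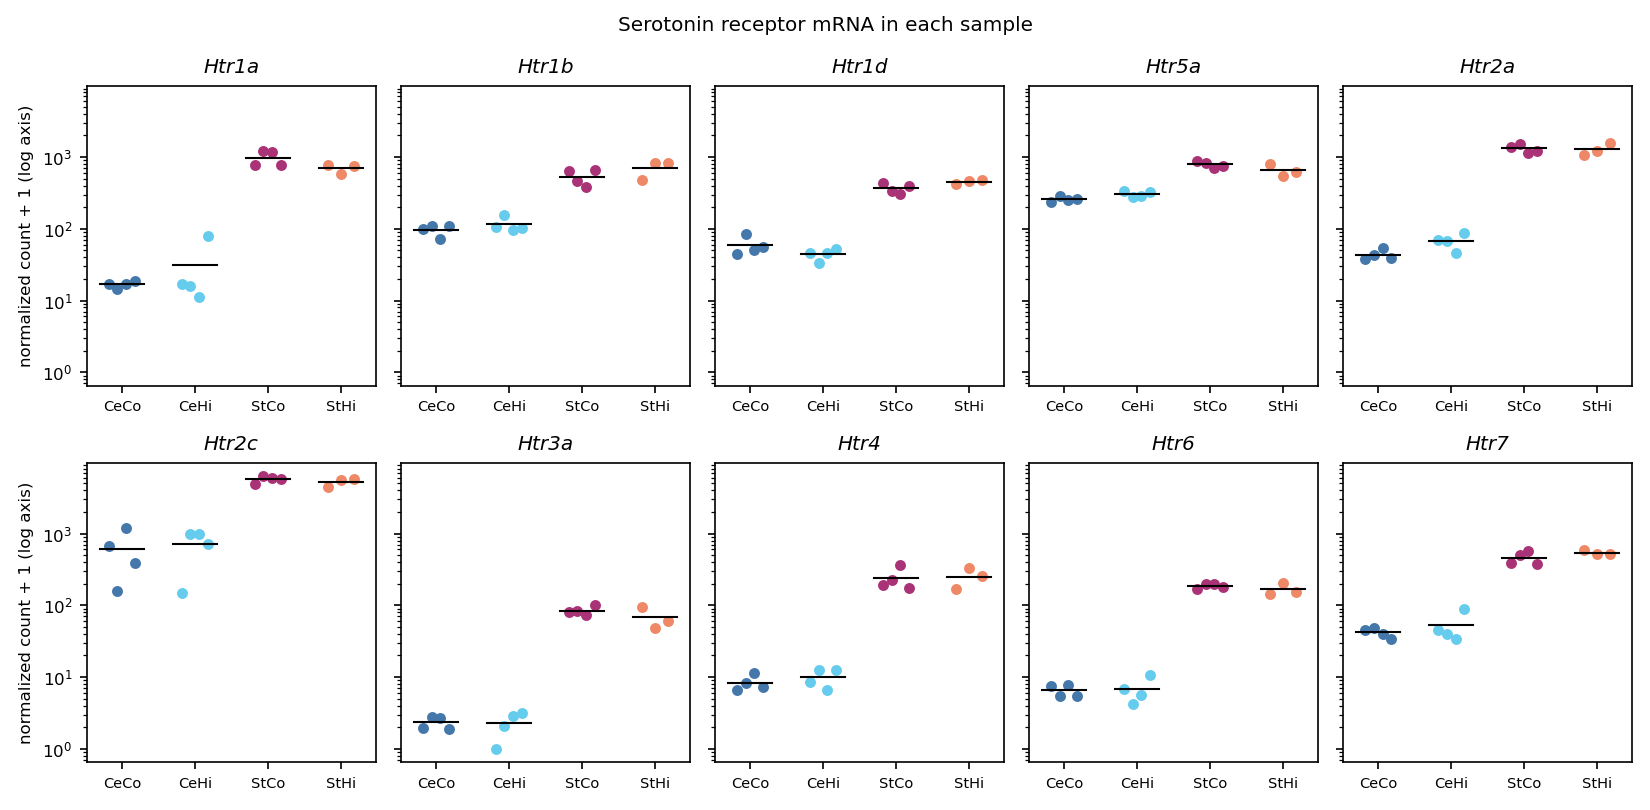
Normalized counts plus 1 (log axis) of the 10 serotonin receptor genes in each sample of the 4 groups, with a line at the group mean; a panel is 1 gene. Every Ce point lies below every St point of the same gene, the gap is smallest for Htr5a, Htr2c is spread widely within the Ce, and the lines overlap within each region.

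Among the Gi/o-coupled receptors, Htr1a, which encodes the somatodendritic autoreceptor of raphe neurons and a postsynaptic inhibitory receptor of cortex and hippocampus, showed the largest difference. Its normalized counts were 15.8, 13.4, 16.2 and 17.8 in CeCo and 15.98, 14.8, 10.2 and 79.3 in CeHi. In the St they were 762, 1214, 1162 and 768 in StCo and 765, 577 and 746 in StHi. The Ce samples were alike except for CeHi replicate 3, and no Ce sample came near the St. The St mean was 37.3 times the Ce mean, and 57.5 times without CeHi replicate 3. The log2 difference was -5.40 (SE 0.33), or -5.71 without that sample. Htr1a passed the filter through the St alone, so no P-value is given for this difference.

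Htr1b encodes the terminal receptor that lowers transmitter release, which medium spiny neurons carry on their axons. Its normalized counts in the Ce were 99.7, 110, 69.97 and 107 in CeCo and 103, 155, 94.5 and 103 in CeHi. In the St they were 631, 460, 379 and 661 in StCo and 481, 833 and 817 in StHi. The St values were therefore 5.79 times those of the Ce on average, a smaller gap than for Htr1a (log2 -2.53, SE 0.16, FDR-adjusted P-value = 4.29e-10). Its close relative Htr1d had 42.9, 83.8, 50.3 and 54.3 in CeCo and 45.4, 32.7, 45.4 and 50.7 in CeHi. The St samples had 441, 340, 302 and 389 in StCo and 414, 470 and 473 in StHi. The ratio of St to Ce means was 7.97 (log2 -3.03, SE 0.14, FDR-adjusted P-value = 1.12e-12).

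Htr5a, which encodes a Gi/o-coupled receptor of the brain whose role is less well known, had the smallest gap. It reached 239, 283, 250 and 256 normalized counts in CeCo and 332, 274, 290 and 323 in CeHi. In the St it reached 866, 831, 701 and 754 in StCo and 809, 539 and 613 in StHi. The St mean was 2.60 times the Ce mean (log2 -1.35, SE 0.08, FDR-adjusted P-value = 7.71e-11). Its values were also the most even within the Ce, where the highest sample was 1.39 times the lowest, against 7.92 times for Htr2c and 7.78 times for Htr1a. Without CeHi replicate 3 the figure for Htr1a was 1.75 times and that for Htr5a was still the lowest of the 9 members above the floor.

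Of the Gq-coupled receptors, Htr2a, the receptor through which classical psychedelics act on cortical neurons, was low in every Ce sample, at 37.3, 42.8, 52.9 and 38.3 in CeCo and 68.1, 66.5, 45.4 and 86.7 in CeHi. The St values were 1391, 1542, 1154 and 1205 in StCo and 1082, 1194 and 1558 in StHi. The 23.8-fold ratio of the means had a narrow error (log2 -4.59, SE 0.13, FDR-adjusted P-value = 2.26e-15). Htr2c was the most abundant member in the St, at 4983, 6312, 5908 and 5718 in StCo and 4494, 5613 and 5741 in StHi. The Ce values were 678, 156, 1185 and 391 in CeCo and 150, 969, 977 and 724 in CeHi. The highest Ce sample thus remained far below the lowest St sample although Ce samples differed greatly among themselves, and the log2 difference of -3.41 had the largest standard error of the family (SE 0.49, FDR-adjusted P-value = 3.74e-05).

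The channel subunit gene Htr3a, a marker of a class of cortical interneurons, was at the detection floor throughout the Ce, with no more than 2 fragments in any of the 8 samples. The St values were 79.0, 83.1, 72.5 and 99.6 in StCo and 93.4, 47.6 and 59.4 in StHi. Against the floor of 3 fragments per library (2.79 normalized counts on average in the Ce) the St mean was at least 27.3-fold higher.

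The Gs-coupled receptors Htr4 and Htr6 were at the edge of detection in the Ce. Htr4, whose receptor raises the excitability of hippocampal neurons, had 6 to 12 fragments per Ce sample, and 189, 222, 361 and 175 normalized counts in StCo and 169, 328 and 252 in StHi. Its St mean was 29.5 times the Ce mean (log2 -4.73, SE 0.21). Htr6, whose receptor sits on primary cilia of striatal neurons, had 3 to 9 fragments per Ce sample. Its St values were 169, 195, 197 and 177 in StCo and 141, 204 and 153 in StHi, 31.1 times the Ce on average (log2 -4.77, SE 0.19). Htr4 and Htr6 passed the filter through the St alone, so no P-value is given for their region differences. Htr7, a receptor of thalamus and hypothalamus with a role in circadian timing, was measurable in both regions. The Ce had 43.8, 47.3, 39.3 and 33.0 in CeCo and 44.6, 39.0, 33.3 and 88.8 in CeHi, and the St had 388, 507, 568 and 381 in StCo and 586, 511 and 520 in StHi. The ratio of means was 10.7 (log2 -3.47, SE 0.17, FDR-adjusted P-value = 6.54e-12), and 12.4 without CeHi replicate 3.

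**Figure D2:**
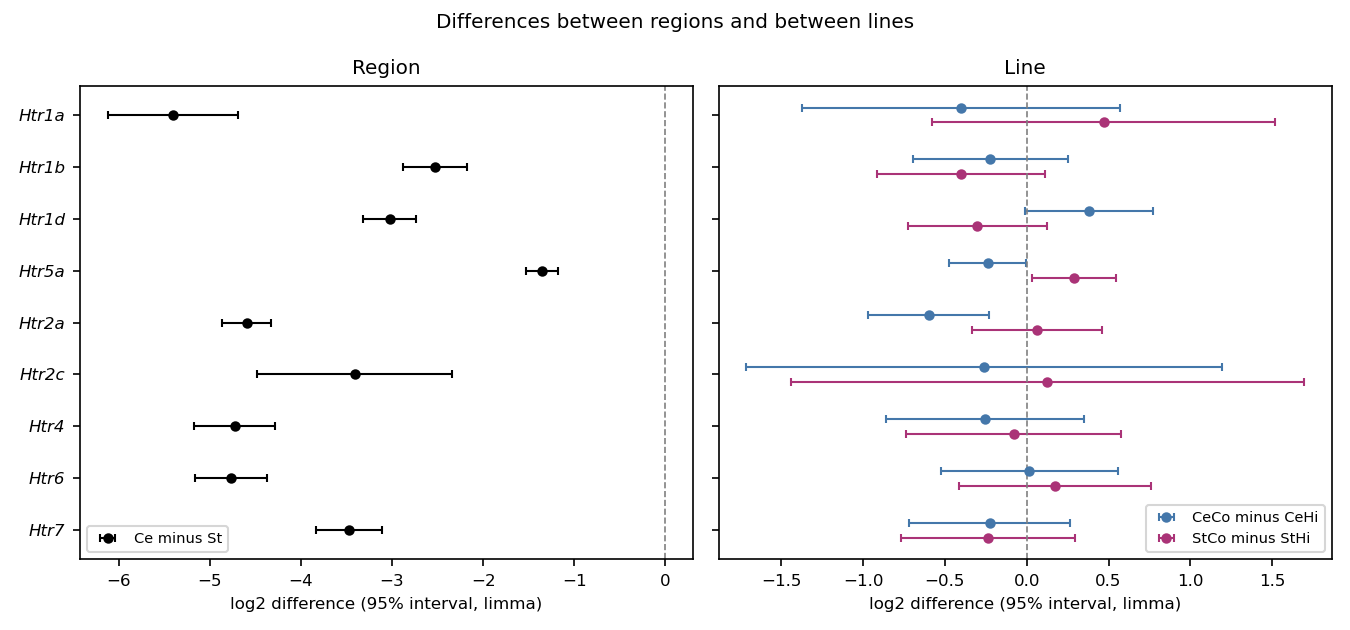
Log2 differences with 95% intervals from limma for 9 receptor genes (Htr3a, at the floor in the Ce, is left out), at left the Ce minus the St and at right Co minus Hi within the Ce and within the St. All regional intervals lie below 0, from -5.40 for Htr1a to -1.35 for Htr5a, while no line difference was called after adjustment and the intervals of Htr2c and Htr1a are the widest.

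All 10 members were called lower in the Ce within each line as well. The 4 that passed the filter through the St alone again add no support. Among members above the floor in the Ce, the log2 difference in Co ranged from -5.84 for Htr1a to -1.62 for Htr5a. In Co, 36.9% of all genes were called lower in the Ce. In Hi the difference ranged from -4.97 for Htr1a to -1.09 for Htr5a, and 35.1% of all genes were called lower. These shares are over all genes tested and not only those at 1 CPM in both regions. Htr3a, at the floor, was called but is given no difference here.

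Levels of different genes were compared per kilobase of exon. In the Ce the order by the median of 8 samples was Htr2c (75.2 normalized counts per kb), Htr5a (51.8), Htr1b (21.8), Htr1d (14.96), Htr7 (12.2), Htr2a (8.77), Htr1a (3.55), Htr6 (2.25), Htr4 (1.498) and Htr3a (0.663). Only the steps from Htr5a to Htr1b and from Htr4 to Htr3a separated neighbours without overlap of their samples, and Htr2c exceeded Htr5a in 5 of 8 samples. In the St the order by the median of 7 samples was Htr2c (613), Htr2a (215), Htr1a (171), Htr7 (150), Htr5a (140), Htr1b (134), Htr1d (129), Htr6 (75.8), Htr4 (45.1) and Htr3a (37.9). There the separated neighbours were Htr2c from Htr2a and Htr1d from Htr6, and the members from Htr2a to Htr1d formed a run of overlapping levels. Htr1a and Htr2a stood 4 places higher in the order of the St than in that of the Ce, and Htr5a, Htr1b and Htr1d stood 3 places lower.

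As a share of the summed level per kb, Htr2c made up 33.8% ± 16.4 (SD, n = 8) in the Ce and 34.5% ± 1.98 (SD, n = 7) in the St, with a wider spread in the Ce. Htr5a accounted for 28.2% ± 7.52 of the sum in Ce samples and 7.97% ± 1.52 in St samples. Grouped by coupling, Gi/o receptors held 51.5% ± 13.5 of the sum in the Ce and 34.0% ± 1.69 in the St, Gq receptors 38.9% ± 15.4 and 48.1% ± 2.16, and Gs receptors 9.29% ± 2.75 and 15.8% ± 2.104. The channel subunit held 0.314% of the sum in Ce samples and 2.16% in St samples. The sum itself was 194 ± 41.3 normalized counts per kb in Ce samples, against 1715 ± 115 for the St. Shares within a sample are not independent of each other.

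**Figure D3:**
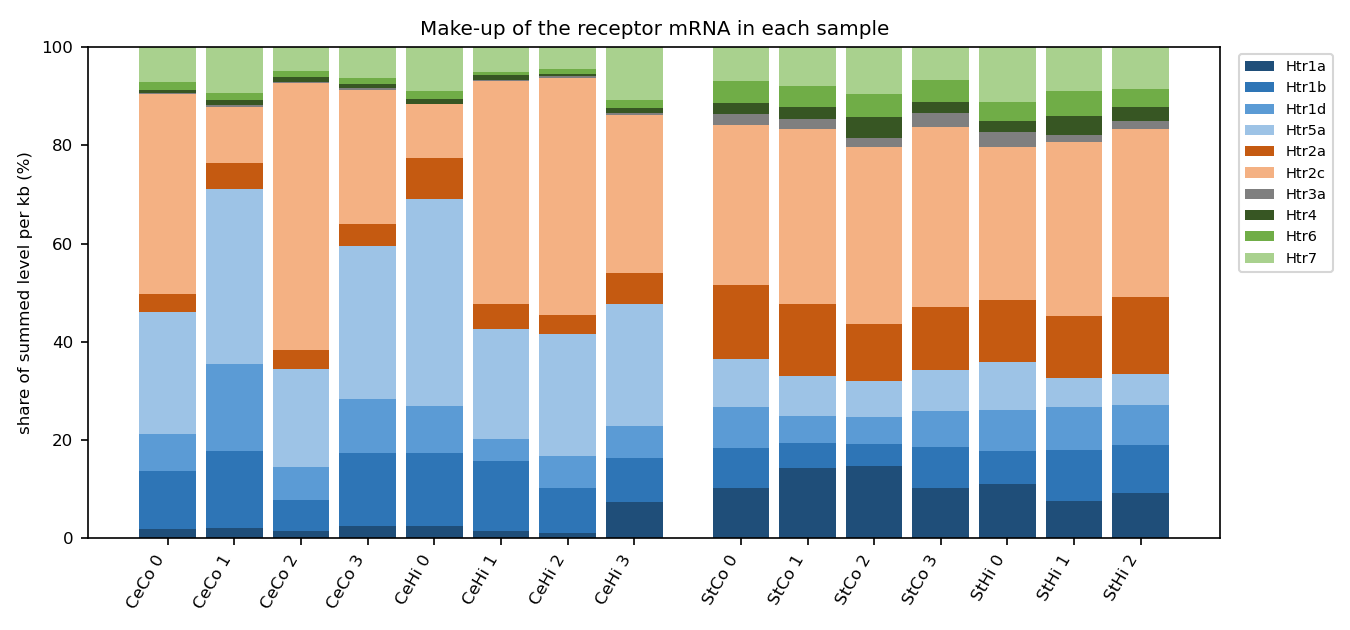
Share in percent of each receptor gene in the summed level per kb of the 10 genes, a bar per sample, with blues for Gi/o, oranges for Gq, grey for the channel subunit and greens for Gs receptors. The St bars are alike, whereas in the Ce the Htr2c share runs from 10.9% to 54.2% and Htr5a takes 28.2% on average against 7.97% in the St.

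The spread of Htr2c in the Ce moved with choroid plexus RNA. The summed normalized counts of 10 choroid plexus markers, with the transthyretin gene Ttr the highest, were 80508, 1978, 118809 and 37180 in CeCo and 1637, 115082, 90173 and 13157 in CeHi. The samples with the lowest marker sums, CeCo replicate 1 and CeHi replicate 0, also had the lowest Htr2c (156 and 150), and CeCo replicate 2 was highest for both. CeHi replicate 3 departed from this order, with 724 normalized counts of Htr2c beside a low marker sum. In the St the marker sums were 1306 to 3507 except in StHi replicate 2, which had 18417, and Htr2c there (5741) lay within the range of the other St samples. None of the 10 markers was called between lines in either region. The part of choroid plexus in the Htr2c values was not tested.

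**Figure D4:**
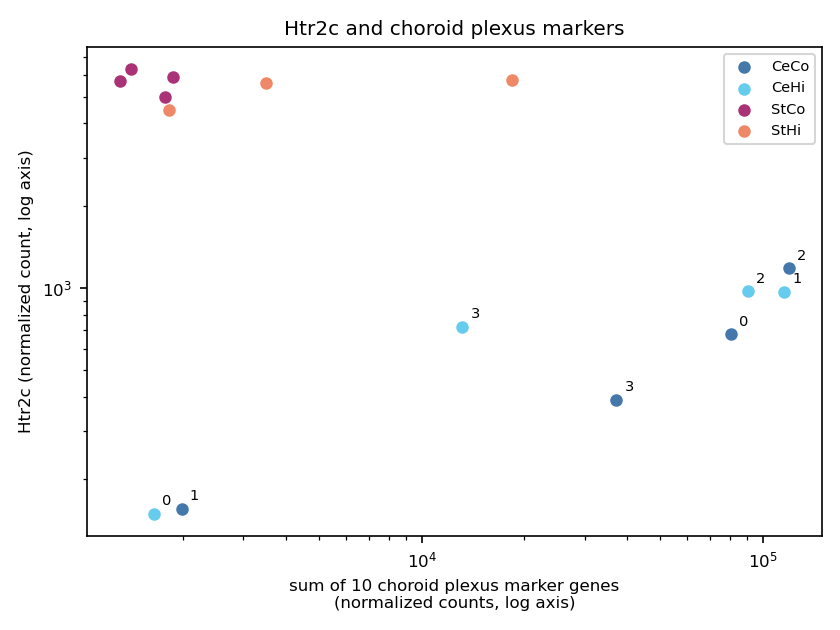
Normalized counts of Htr2c against the summed normalized counts of 10 choroid plexus marker genes, both on log axes, a point per sample and numbers giving the replicate of each Ce sample. Ce samples with marker sums of 1637 and 1978 have Htr2c at 150 and 156, and St samples lie high at any marker sum.

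CeHi replicate 3 carried more of several receptors than the other 7 Ce samples. Its Htr1a level of 79.3 was 5.003 times their median, Htr7 (88.8) was 2.26 times, Htr6 (9.51) 2.05 times and Htr2a (86.7) 1.91 times. The Htr6 value rested on 9 fragments, against 3 to 8 in the other Ce samples. CeHi replicate 3 was also highest for Htr4 and Htr3a, by margins of less than 1 fragment. It lay within the range of the others for Htr1b, Htr1d, Htr2c and Htr5a. The same sample had 613 normalized counts of the interneuron gene Sst (57.0 to 89.1 in the others), 98.3 of Vip (0.892 to 7.46), 179 of the forebrain transcription factor gene Six3 (1.78 to 5.05) and 1183 of the thalamic and midbrain gene Tcf7l2 (176 to 237). Over whole lists, it was the highest Ce sample for 7 of 8 interneuron markers, 8 of 11 medium spiny neuron markers, 4 of 5 serotonin neuron markers, 2 of 8 thalamus and hypothalamus markers, all 3 blood cell markers and none of the 7 cortical markers. The summed medium spiny neuron markers (15077) lay within the range of the other Ce samples (14457 to 16588). As a share of the St median, CeHi replicate 3 had 6.30% for Six3, 2.01% for Tac1, 2.23% for Drd2 and 10.4% for Htr1a, where the other Ce samples had 1.33% to 2.33% of Htr1a. It had 17.4% for Htr7, where the others had 6.45% to 9.25%. The part of other tissue in the receptor values was not tested.

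**Figure D5:**
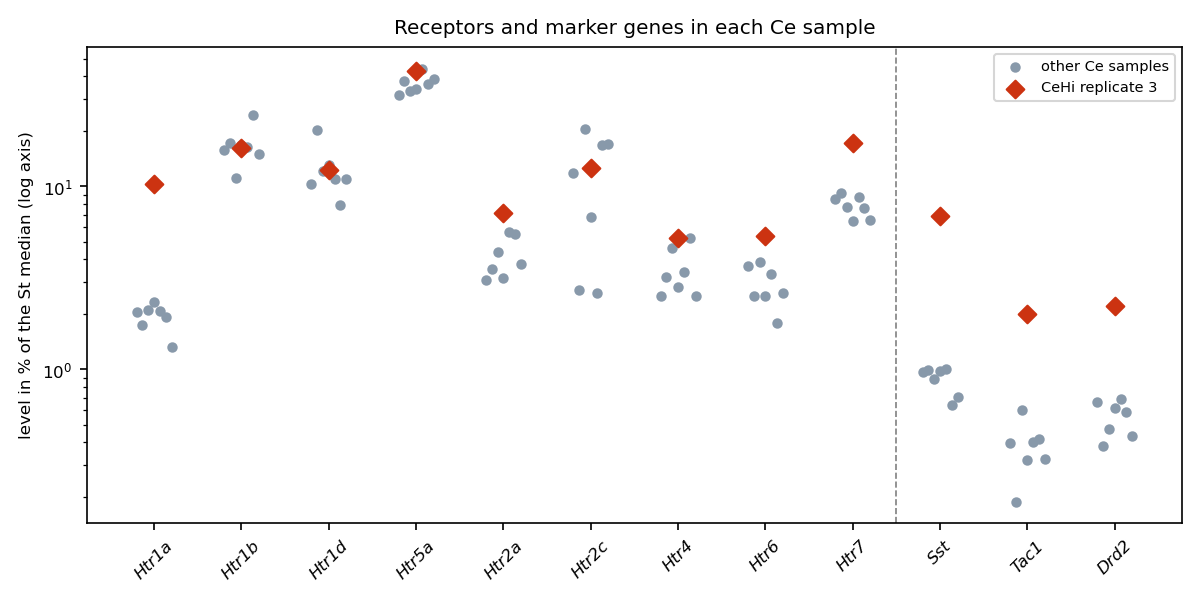
Level of 9 receptor genes and 3 marker genes in each Ce sample as percent of the St median (log axis), with CeHi replicate 3 as a red diamond and the other 7 Ce samples in grey. The diamond stands clear of the grey points for Htr1a (10.4%), Htr7 (17.4%), Sst (6.93%), Tac1 (2.01%) and Drd2 (2.23%), and lies among them for Htr1b, Htr1d, Htr2c and Htr5a.

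The second question was whether the lines differed. None of the 10 members was called between CeCo and CeHi (5.94% of all genes were), between StCo and StHi (2.66%), in the line by region interaction (0.532%) or in the line effect across regions (8.48%). At an unadjusted P-value under 0.05 there were 2 members in the Ce (19.7% of all genes), 1 in the St (14.1%), 3 in the interaction (9.56%) and 0 across regions (22.3%). The quasi-likelihood test of edgeR on recovered fragments also called 0 in each contrast, and DESeq2 called 1 in the Ce and 0 in the others. The groups of the 2 lines overlapped for every member in both regions, whereas the lines did not overlap for 13.6% of all genes in the Ce and for 13.1% in the St. On the log2 scale (Co minus Hi) the members had a median of -0.23 in the Ce and of 0.09 for the St, against 0.0021 and 0.0046 over all genes tested.

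Htr2a was the nearest to a call in the Ce, at 42.8 ± 7.14 (SD, n = 4) in CeCo and 66.7 ± 16.9 (SD, n = 4) in CeHi. Among the CeHi samples, 3 exceeded every CeCo sample, and CeHi replicate 2, at 45.4, lay inside the CeCo range. The log2 difference was -0.60 (SE 0.17, 95% interval -0.97 to -0.23) with an FDR-adjusted P-value of 0.0533 in limma. It was -0.63 with an FDR-adjusted P-value of 0.0227 in DESeq2, and -0.46 with 0.150 without CeHi replicate 3, the sample that stood apart in marker genes. The FDR-adjusted P-value fell to 0.00812 without CeHi replicate 2 and to 0.0325 without CeCo replicate 2. In the St the log2 difference of Htr2a was 0.06 (95% interval -0.34 to 0.46), and the difference between the regions (-0.66, SE 0.26) was not called (FDR-adjusted P-value = 0.377).

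Htr5a leaned in opposite directions in the regions. CeCo averaged 257 ± 18.7 (SD, n = 4) and CeHi 305 ± 27.4 (SD, n = 4), a log2 difference of -0.24 (SE 0.11, FDR-adjusted P-value = 0.250). StCo averaged 788 ± 74.5 (SD, n = 4) and StHi 654 ± 140 (SD, n = 3), a log2 difference of 0.29 (SE 0.12, FDR-adjusted P-value = 0.269). The interaction of -0.53 (SE 0.17, unadjusted P-value = 0.0053) was not called at an FDR-adjusted P-value of 0.219. Without StHi replicate 0, whose Htr5a was the highest of the StHi samples, it was -0.70 with an FDR-adjusted P-value of 0.0356, and the St difference was 0.46 with 0.0374. Without StHi replicate 1 the St difference was 0.16 with 0.725. StHi replicate 0 stood apart in hypothalamic genes, with 908 normalized counts of Pmch (0.914 to 9.50 in the other St samples) and 445 of Hcrt (0.914 to 3.56). It was the highest St sample for 4 of 8 thalamus and hypothalamus markers, whose sum was 3710 there and 815 to 1658 in the others, and their part in the Htr5a values was not tested.

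Cortical excitatory neuron markers moved with this gene in the St. Their sum was lowest in StHi replicate 1 (19700 normalized counts), next in StHi replicate 2 (30413) and between 36077 and 52872 in the other 5 samples, and Htr5a, Htr1a and Htr3a were lowest in the same 2 StHi samples in the same order. None of the 7 cortical markers tested was called between StCo and StHi, although all 7 were on the Co side with a median of 0.56 on the log2 scale. Their part in the Htr5a difference was not tested.

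Htr1d had values that leaned toward Co in the Ce (57.8 ± 17.95 in CeCo and 43.6 ± 7.66 in CeHi, log2 0.38, SE 0.19) and toward Hi in the St (368 ± 60.02 and 452 ± 33.2, log2 -0.30, SE 0.20). The interaction of 0.68 (SE 0.27) had an FDR-adjusted P-value of 0.401. Htr1b averaged 533 ± 135 in StCo and 710 ± 199 in StHi (log2 -0.40, SE 0.24, FDR-adjusted P-value = 0.513). The 3 St samples with the lowest Htr1b, StCo replicates 1 and 2 and StHi replicate 0, were also the 3 with the lowest sums of medium spiny neuron markers, 207470 to 219945 against 271329 to 287579 in the other 4. StCo replicates 1 and 2 had the highest Htr1a of the St (1214 and 1162). These coincidences were noticed in the values and were not tested.

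Htr1a averaged 15.8 ± 1.84 in CeCo and 30.05 ± 32.9 in CeHi, and its log2 difference of -0.40 turned to 0.22 without CeHi replicate 3. Htr7 turned likewise from -0.23 to 0.065. In the St, Htr1a averaged 976 ± 245 in StCo and 696 ± 104 in StHi (log2 0.47, SE 0.49), and Htr7 averaged 461 ± 92.0 and 539 ± 41.2 (log2 -0.24, SE 0.25). For Htr2c the 95% interval of the Ce line difference ran from -1.71 to 1.19, so that a difference of 2-fold in either direction lay inside it. The log2 line differences of Htr4 and Htr6 lay between -0.25 and 0.17 in both regions, and that of Htr3a in the St was 0.37 (SE 0.39). In the Ce, Htr3a was at the floor in both lines, and Htr4 and Htr6 rested on 3 to 12 fragments per sample, with 95% intervals of the line difference from -0.86 to 0.35 and from -0.53 to 0.56.

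Outside the 10 members, 4 more serotonin receptor genes were in the table. Htr1f, a Gi/o-coupled receptor gene, had 1 to 7 fragments in the Ce and 121 to 193 normalized counts in the St, and it was not called between lines in the Ce (FDR-adjusted P-value = 0.237), where CeHi was at the floor. Htr2b, Htr3b and Htr5b did not pass the filter. Htr5b was seen in the St, at 19.7 to 43.5 normalized counts. In two-sided exact permutation tests between lines the P-values of these 3 genes were 0.0857 to 0.457 in the Ce, where the smallest possible was 0.0286, and 0.229 to 0.857 in the St, where the smallest possible was 0.0571.

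The machinery around the receptors was described from lists of genes with known roles. Among all 15213 genes tested, 6183 were called higher in the Ce and 6017 lower, 80.2% in all. The list counts below were not tested against these. Of 10 genes for synthesis, transport and breakdown, 7 were tested, and 2 were higher and 3 lower in the Ce. Maoa, which encodes the enzyme that oxidizes serotonin, was higher in the Ce (log2 0.79, SE 0.04), as was the low-affinity monoamine transporter gene Slc29a4 (2.27, SE 0.13), while the transporter gene Slc22a3 was nearly limited to the St (-5.80, SE 0.34). Of 8 Gi/o proteins and effectors, 5 were higher in the Ce and 2 lower. Kcnj3, a potassium channel subunit opened by Gi/o receptors, was among the higher genes (1.55, SE 0.07). Gnao1 was among the lower genes (-0.56, SE 0.04). Of 9 Gq genes tested, 4 were higher, among them Plcb4 (2.67, SE 0.06), a phospholipase C of Purkinje cells. The 4 lower genes included Plcb1 (-1.94, SE 0.08). Of 10 Gs genes, 2 were higher, among them Adcy1 (2.21, SE 0.09). The 6 lower genes included the striatal adenylyl cyclase Adcy5 (-4.30, SE 0.06). Of 10 receptor partners and RNA editing enzymes, 5 were higher and 2 lower. The editing enzyme gene Adarb1, known to act on Htr2c RNA, was higher in the Ce (0.69, SE 0.05). Adar, another editing enzyme gene of this list, was lower (-0.46, SE 0.04). The median of the region difference was 0.02 for the first list, 0.34 for Gi/o, -0.02 for Gq, -0.95 for Gs, 0.05 for the partners and 0.01 for all genes. For the 6 receptors that reached 1 CPM in both regions it was -3.22.

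Between lines, 1 of the 44 tested genes of these lists was called in the Ce (2.27%, against 5.94% of all genes) and 2 across regions (4.55%, against 8.48%). Itpr3, a receptor channel that releases stored calcium downstream of Gq, averaged 834 ± 46.6 (SD, n = 4) in CeCo and 534 ± 67.8 (SD, n = 4) in CeHi, groups that did not overlap. Its log2 difference was 0.66 (SE 0.12, FDR-adjusted P-value = 0.0031) in the Ce and 0.36 (SE 0.09, FDR-adjusted P-value = 0.0178) across regions. Maoa was called across regions at 0.13 (SE 0.04, FDR-adjusted P-value = 0.0431), a call lost under most alternatives. In the St and in the interaction, none of the 44 tested genes of these lists was called. Of the marker lists, Npy was called in the Ce, in the interaction and across regions, and Cbln1 in the St and in the interaction. Penk and Prox1 were called across regions. In these line contrasts all of them were lower in Co. For Npy in the Ce the authors report the opposite direction, with lower expression in Hi. The values here were 138 to 192 in CeCo and 297 to 569 in CeHi. Among the calls of the marker lists, only those of Npy in the Ce and across regions held under every alternative. Both calls of Itpr3 held as well. Its highest FDR-adjusted P-values, in limma with a sample left out, were 0.0147 in the Ce and 0.0458 across regions.

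The genes most like each receptor over the 15 samples were sought by the root mean square (RMS) difference of mean-centred log2 values among the 15213 genes tested. The closest match of the family was Adcy2 for Htr5a (RMS 0.136 log2 units), followed by Pou3f1 for Htr6 (0.177), Insm1 for Htr7 (0.220), Mn1 for Htr2a (0.223) and Cacnb1 for Htr1d (0.238). For the others the nearest genes were St8sia2 for Htr1b (0.259), Gm13111 for Htr2c (0.279), Kcna4 for Htr4 (0.300), Slit1 for Htr1a (0.316) and Kcnt2 for Htr3a (0.384). The second nearest were Me3, Cacna1h, Vstm2b, Kcna4, Lad1, Zswim6, Scube3, Lzts1, 4930539E08Rik and Stx1a in the same order of receptors. Kcna4, a potassium channel gene, was thus near both Htr2a and Htr4. The measure does not separate likeness between the regions from likeness within them.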

How the data were processed

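RNA of 15 samples was sequenced by the authors as paired reads of 100 bases, aligned to GRCm38 with TopHat2, and summarized per gene with Cuffnorm 2.2.1, which divided counts by a library-size factor. The deposited signal values are these normalized counts, not divided by length although the table is named for FPKM. Between 99.6% and 99.8% of the low values per sample (up to 20.5 steps) were whole multiples, within 0.1 of a step, of the value of 1 fragment, and totals were 38499264 to 43669012. Samples were grouped by their labels. Values were scaled with TMM factors (0.993 to 1.01, edgeR 4.0.16) and transformed as log2(value + 1), and the 15213 genes at 1 CPM in 3 samples were fitted with limma 3.58.1 (R 4.3.3), as 4 group means with trended, robust moderation and Benjamini-Hochberg adjustment over all of them. limma replaced the edgeR test of the study because the values are scaled. edgeR and DESeq2 1.42.0 were run on the recovered fragments. The fit was tested on simulated data. Levels per kb used exon lengths of GENCODE M21. P-values set a difference between groups against the spread between these samples, and do not reach beyond the lines sampled. All 10 members were described. Other genes were named when they were the 2 most alike, called between lines within a list, or among the 4 most abundant of a list, and Slc6a4, Fev, Tph2, Slc22a3, Kcnj3, Plcb4, Adarb1, En1, Gata3, Pmch, Hcrt, Sst, Vip, Six3, Tcf7l2, Tac1 and Drd2 were added after their values were seen. The members and lists were chosen with earlier results of these data known.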

Additional observations from a re-analysis of the deposited data

Results flagged for a closer look

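In groups of 4 samples, a highest or lowest value was singled out when its gap to the nearest sample exceeded the 95% critical share of the range of the group (Dixon's test), which chance does in about 1 of 20 groups. Of 30 groups (10 members in CeCo, CeHi and StCo), 2 met this. Htr1a was 79.3 normalized counts in CeHi replicate 3, where the other CeHi samples had 10.2 to 15.98. Htr1b was 155 normalized counts in CeHi replicate 1, where the others had 94.5 to 103, and its level there was not accompanied by a high Htr1d (32.7, the lowest of the Ce).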

How the results depend on the processing

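The region call across both lines held for all 10 members under every alternative run. For the 4 that passed the filter through the St alone, this adds no support. In the main fit 80.2% of all genes were called between regions. The alternatives were pseudocounts of 0.1 and 5, other filters and scalings, plain moderation and sample quality weights. They also included edgeR, DESeq2, each region fitted alone where it applies, and each sample left out. Calls within each line were counted only with a pseudocount of 0.1, no filter, edgeR and each sample left out, and held there. The count of 0 members between lines became 1 in the Ce under DESeq2 and 1 in the interaction with sample quality weights (Htr5a, -0.62, FDR-adjusted P-value = 0.0464). It ranged from 0 to 1 with samples left out in the Ce (Htr2a, without CeCo replicate 2 or CeHi replicate 2), the St and the interaction (both Htr5a, without StHi replicate 0), and was 0 throughout across regions. Over all genes the calls in the Ce rose from 903 to 1389 under DESeq2. In the St they went from 405 to 709 under DESeq2 and 740 with weights, and to 269 without StCo replicate 1 or StHi replicate 2. In the interaction they went from 81 to 277 under DESeq2 and 182 with weights, and down to 46 with samples left out. The causes were not tested.

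Directions turned for 12 line or interaction values, none of them called and none larger than 0.40 in size as reported. In the Ce, Htr2c became 0.020 with weights, and Htr6 became -0.0037 with a pseudocount of 5, -0.044 in edgeR and -0.048 in DESeq2. In the St, Htr2a became -0.00697 with weights. In the interaction, Htr3a became 0.33 with a pseudocount of 0.1, Htr4 0.063 with weights, and Htr7 -0.10 in edgeR and -0.10 in DESeq2. With samples left out, the Ce values ranged from -0.73 to 0.22 for Htr1a, -0.90 to 0.27 for Htr2c, -0.20 to 0.35 for Htr3a, -0.20 to 0.25 for Htr6 and -0.40 to 0.065 for Htr7. The St values ranged from -0.048 to 0.21 for Htr2a and -0.34 to 0.14 for Htr4. The interaction ranged from -1.02 to 0.15 for Htr2c, -0.40 to 0.081 for Htr4, -0.36 to 0.087 for Htr6 and -0.15 to 0.31 for Htr7.

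The replicate numbers were checked as pairs between Ce and St. Residuals of same-numbered samples correlated at 0.171 to 0.278 in the 4 Co pairs, each Ce sample best with its own number. In the 3 Hi pairs they correlated at -0.0751 to 0.0513, so the numbers were not used as pairs. The main fit took the samples as independent. Its P-values for region, interaction and the line effect across regions depend on that. With the replicate block, 0 members were called between lines. All 10 were called between regions, of which 4 had passed the filter through the St alone. The calls over all genes were 948 in the Ce, 374 in the St, 73 in the interaction and 12264 between regions. With the block within line, the interaction of Htr6 turned to 0.081 and 54 genes were called in the interaction. Counts of 0 to 12 fragments limit Htr3a, Htr4 and Htr6 in the Ce.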
